A study of Caenorhabditis elegans with 2 samples.

Results

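The outer ring of the nuclear pore was examined as a target of one of its own proteins. The 9 genes were chosen by name, as the listed genes of the Y complex, out of 19973 nuclear protein-coding genes: mel-28, npp-2, npp-5, npp-6, npp-10, npp-15, npp-18, npp-20 and npp-23. All 9 were found in the annotation and all 9 are counted, with or without a peak. Binding was read from peak lists of chromatin immunoprecipitation followed by sequencing (ChIP-seq) in whole Caenorhabditis elegans, in 1 group of 2 biological replicates. The worms were young adults of mixed sex from strain OP646, taken 64 h after synchronisation as starved L1 larvae. Their genotype was unc-119(tm4063) III; wgIs646, where wgIs646 is the transgene that makes MEL-28 with GFP and FLAG tags at its C terminus. Chromatin was recovered with an antibody against GFP. Both replicates share this genotype, so there is no second condition, and an untagged strain was not analysed here. The sources used here do not give the extent or copy number of the transgene. All animals came from 1 transgenic strain. In whole animals, a low signal from few bound nuclei and weak binding in many nuclei cannot be told apart.

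The Y complex is the scaffold that lines both faces of the nuclear pore as a ring. In animals it is joined by ELYS, which worms call MEL-28, a protein that binds chromatin and starts the assembly of new pores on it after mitosis. MEL-28 also sits at kinetochores during division. The other 8 genes encode the ring's subunits. npp-6 encodes the Nup160 relative, npp-2 the Nup85 relative, npp-5 the Nup107 relative, npp-15 the Nup133 relative, npp-18 the Seh1 relative, npp-20 the Sec13 relative and npp-23 the Nup43 relative. npp-10 encodes the precursor that is cut into the Nup98 and Nup96 relatives.

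Each gene was given a window from 1000 bp upstream of its annotated 5′ end to its 3′ end, and a gene counted as having a peak where a summit lay inside it. Coordinates are ce11 and start from 1. There were 3 relaxed lists, which also hold weak peaks, and 1 list thresholded for reproducibility. The pooled relaxed list is labelled as peaks and background, so a summit listed there need not mark a bound site. Inside the members' windows the deposited −log10 q-value was 1.65 to 2.05 at the upstream summit of npp-6. At every other summit inside them it was at most 1.27. The nuclear chromosomes held 17005 peaks in the pooled relaxed list, 23774 in that of replicate 1, 19576 in that of replicate 2 and 369 in the reproducible list. Signal is the authors' own value per peak, its scale is not given, and the sequencing depth is unknown. Each signal is therefore also given as its percentile among the nuclear peaks of the same list. A percentile ranks a peak within its list and does not measure its significance.

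mel-28 itself (WBGene00003210, 18 exons) carried no summit in any of the 4 lists, although its window of 7312 bp on chromosome III (4785080 to 4792391) was the longest of the 9. npp-18 (WBGene00003804, chromosome III 13296853 to 13298993, plus strand) was the other gene without a summit in its window. Across all protein-coding genes, 29.8% had no summit in any of the 3 relaxed lists, and so 2 of 9 is close to the background. The windows differ in length. Among the 2224 protein-coding genes with a window at least as long as that of mel-28, 4.86% had none. The sequence around the annotated start of mel-28 is shown, as it is the gene of the immunoprecipitated protein and no summit was listed there. Whether it holds the promoter was not examined. These 300 bases run from 250 bases before the annotated 5′ end through the first 50 of the gene (chrIII:4785830-4786129, plus strand, RefSeq sequence of WBcel235), and the capitals mark the start codon.
mel-28 start: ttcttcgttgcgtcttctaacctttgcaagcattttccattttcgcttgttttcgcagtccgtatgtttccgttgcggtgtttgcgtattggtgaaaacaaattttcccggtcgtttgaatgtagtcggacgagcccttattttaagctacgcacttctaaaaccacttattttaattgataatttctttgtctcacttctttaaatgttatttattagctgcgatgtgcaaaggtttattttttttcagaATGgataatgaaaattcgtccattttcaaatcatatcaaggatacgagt

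The lack of summits at mel-28 reached far beyond the gene, an observation made after the values were seen. In the pooled list the nearest summit on the upstream side lay 27644 bp before the window, with signal 44.0, and the nearest on the other side 12358 bp past the 3′ end, with signal 53.6. In replicate 1 these distances were 27860 and 11611 bp, and in replicate 2 they were 27628 and 10740 bp. The stretch without a summit was thus 47.3 kb long in the pooled list, 46.8 kb in replicate 1 and 45.7 kb in replicate 2. All 3 lists began it at nearly the same place. The 3 lists share reads, since the pooled list was made from both replicates. The lists of the 2 replicates also drew on 1 shared file whose role is not named, so they were not made wholly independently.

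Without a summit in any of the 3 relaxed lists, the stretch ran from 4757453 to 4803130 of chromosome III, or 45.7 kb. It ranked 7 by length among 59421 such stretches of the genome and 3 among the 8930 of chromosome III. The median of all stretches was 628 bp, the 99th percentile 13513 bp and the longest 224180 bp. Of all protein-coding genes, 0.616% had their 5′ end in a stretch at least as long. For the lists taken singly, the limit was the length of the mel-28 stretch in the same list. The share was then 4.41% in the pooled list (47.3 kb), 1.13% in replicate 1 (46.8 kb) and 2.88% in replicate 2 (45.7 kb).

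The stretch held 10 protein-coding genes entire: B0393.4, B0393.5, B0393.7, B0393.9, gex-5, C38D4.10, enu-3.2, mel-28, mip-1 and tag-325. It had 0 unknown bases, like the stretch at each of the other members, and 25.6% of it is soft-masked as repeat, against 39.9% of chromosome III. Its GC content was 37.4%, against 35.7% for the chromosome. How uniquely reads map in the stretch was not examined. Upstream of it, high peaks stood near its edge in the pooled list and replicate 1. In the pooled list a summit 31725 bp upstream of the 5′ end of mel-28 had signal 87.9 (percentile 97.4) and one 28855 bp upstream had signal 82.5 (percentile 96.7). Replicate 1 had summits 31703 and 28860 bp upstream, at percentiles 98.2 and 99.5. Replicate 2 had a summit 31660 bp upstream at percentile 96.0, but its 2 nearest to the stretch, 29008 and 28628 bp upstream, stood in the middle of the list at percentiles 45.0 and 63.6. The transgene carries mel-28 sequence, so reads from it and from the native gene cannot be told apart in these lists.

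**Figure D1:**
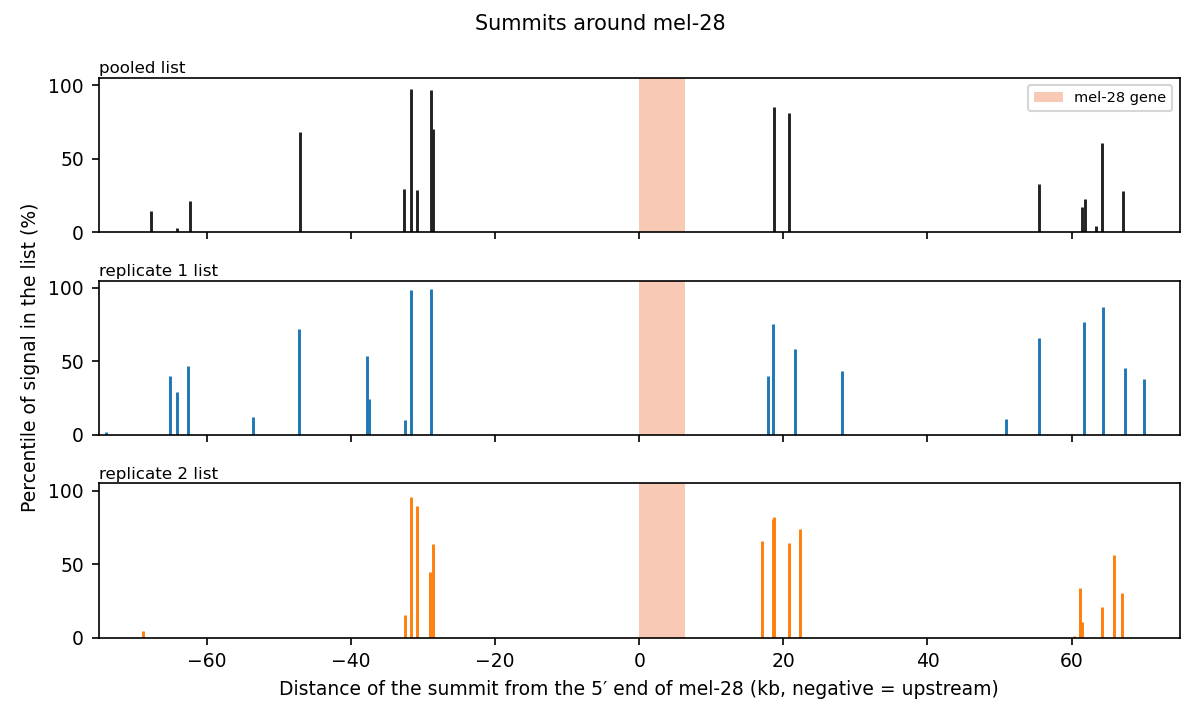
Summits around mel-28 in the pooled, replicate 1 and replicate 2 lists. The horizontal axis is the distance from the 5′ end of mel-28 in kb, each line is 1 summit, and its height is the percentile of its signal in that list. The shaded gene lies in a stretch of 47.3, 46.8 and 45.7 kb without a summit, with peaks on both sides.

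The other members did not lie in stretches as long as that. In the pooled list the stretch that held the 5′ end was 26.9 kb at npp-20, 17.9 kb at npp-15, 16.2 kb at npp-23, 10.7 kb at npp-5, 10.4 kb at npp-10, 6.20 kb at npp-18, 3.52 kb at npp-6 and 1.06 kb at npp-2. In replicate 1 they ran from 0.711 kb at npp-20 to 15.6 kb at npp-23, and in replicate 2 from 0.798 kb at npp-2 to 29.2 kb at npp-6. mel-28 thus had the longest stretch of the 9 genes in each of the 3 lists. Within 50 kb on each side of the 5′ end of mel-28 there were 8 pooled summits, against 12 to 29 at the other 8 genes. The counts were 10 against 18 to 39 in replicate 1 and 10 against 15 to 31 in replicate 2. The gene unc-119, whose mutant allele the strain carries on the same chromosome, had 1 pooled summit in its window, 1 in replicate 1 and 3 in replicate 2. The pooled one had signal 34.5, at percentile 34.8.

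**Figure D2:**
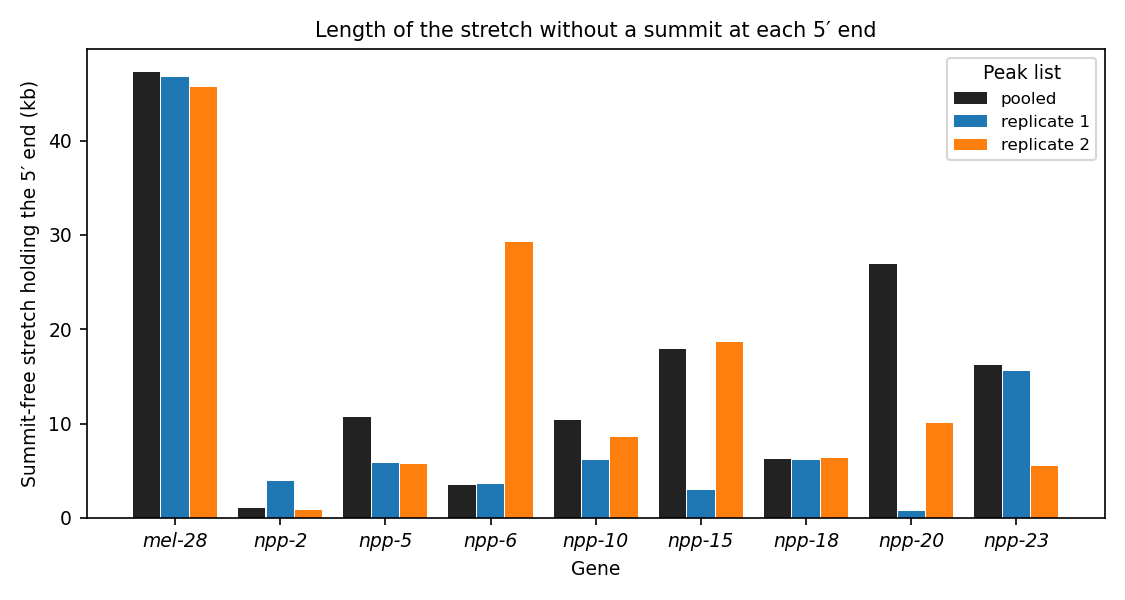
Length in kb of the stretch without a summit that holds the 5′ end of each of the 9 genes, with 1 bar for the pooled list, replicate 1 and replicate 2. The bars of mel-28 stand at 47.3, 46.8 and 45.7 kb, and the next tallest bar is 29.2 kb, at npp-6 in replicate 2.

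Of the 9 genes, 1 had a reproducible peak, npp-6 (WBGene00003792, chromosome I 5176829 to 5182801, plus strand). It was the strongest at any of the 9 genes, with a pooled signal of 102 (rank 265 of 17005, percentile 98.4). Among the 369 nuclear peaks of the reproducible list itself it stood lower, at percentile 28.5. Of all protein-coding genes, 1.76% had a reproducible summit in their window. The peak covered chromosome I 5176217 to 5176646, with its summit at 5176432, 397 bp upstream of the 5′ end of npp-6. That position is an intron of spd-5, the gene of a centrosome scaffold protein, on the opposite strand. The 5′ end of spd-5 was 222 bp away and so nearer than that of npp-6, and both genes share the peak. Replicate 1 had its summit 419 bp upstream with signal 54.3 (percentile 99.1). Replicate 2 had it 397 bp upstream with signal 47.7 (percentile 95.9). The 2 replicate summits were 22 bp apart.

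Within the body of npp-6, in a coding exon, the pooled list had a second and much lower summit 3128 bp past the 5′ end, with signal 31.6 (percentile 17.2). Replicate 1 had a summit 3193 bp past the 5′ end with signal 27.0 (percentile 87.8). The nearest summit of replicate 2 was 3525 bp from the pooled one, so this position was listed by replicate 1 and not by replicate 2.

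By signal in the 3 relaxed lists, the gene most like npp-6 was spd-5, at a distance of 0 because it shares the peak. Next came unc-108, the gene of a Rab GTPase, with a Euclidean distance of 0.108 on the log2 scale, and Y39E4B.6, with 0.139. Their highest pooled signals were 104 and 102. The measure has only these 3 lists behind it.

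npp-2 (WBGene00003788, chromosome I 8291299 to 8293640, minus strand) had the next strongest summits in the pooled list and replicate 2. In replicate 1 its one summit was the weakest of the highest summits of the 5 genes listed there. In the pooled list one lay 394 bp upstream of the 5′ end, outside any annotated gene (chromosome I, summit 8294034), with signal 55.95 (percentile 87.3). Replicate 2 had a summit 397 bp upstream with signal 42.9 (percentile 93.7), whereas the nearest summit of replicate 1 was 1151 bp from the pooled one. The upstream peak of npp-2 was therefore listed by replicate 2 and not by replicate 1. The other pooled summit lay 664 bp past the 5′ end in a coding exon, with signal 49.2 (percentile 79.6). Here both replicates had one, 757 bp past the 5′ end in replicate 1 with signal 16.4 (percentile 36.5) and 605 bp past it in replicate 2 with signal 30.8 (percentile 76.7), 152 bp apart. Replicate 2 listed 2 more summits in the window, 402 bp past the 5′ end with signal 27.6 and 596 bp upstream with signal 21.6.

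npp-15 (WBGene00003801, chromosome III 7929043 to 7933055, plus strand) had the last of the 5 pooled summits. It lay 439 bp past the 5′ end in a coding exon (chromosome III, summit 7929482) with signal 30.1, at percentile 6.34 and so near the bottom of the list. The nearest summits of the replicates were 892 bp away in replicate 1 and 3495 bp away in replicate 2. Replicate 1 instead had a summit 453 bp upstream with signal 21.4 (percentile 71.7), in a coding exon of the neighbouring gene C29E4.13. It had another 2487 bp past the 5′ end in a coding exon with signal 18.4 (percentile 54.2). Replicate 2 listed none in the window, and no summit at npp-15 had another list's summit within 250 bp.

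**Figure D3:**
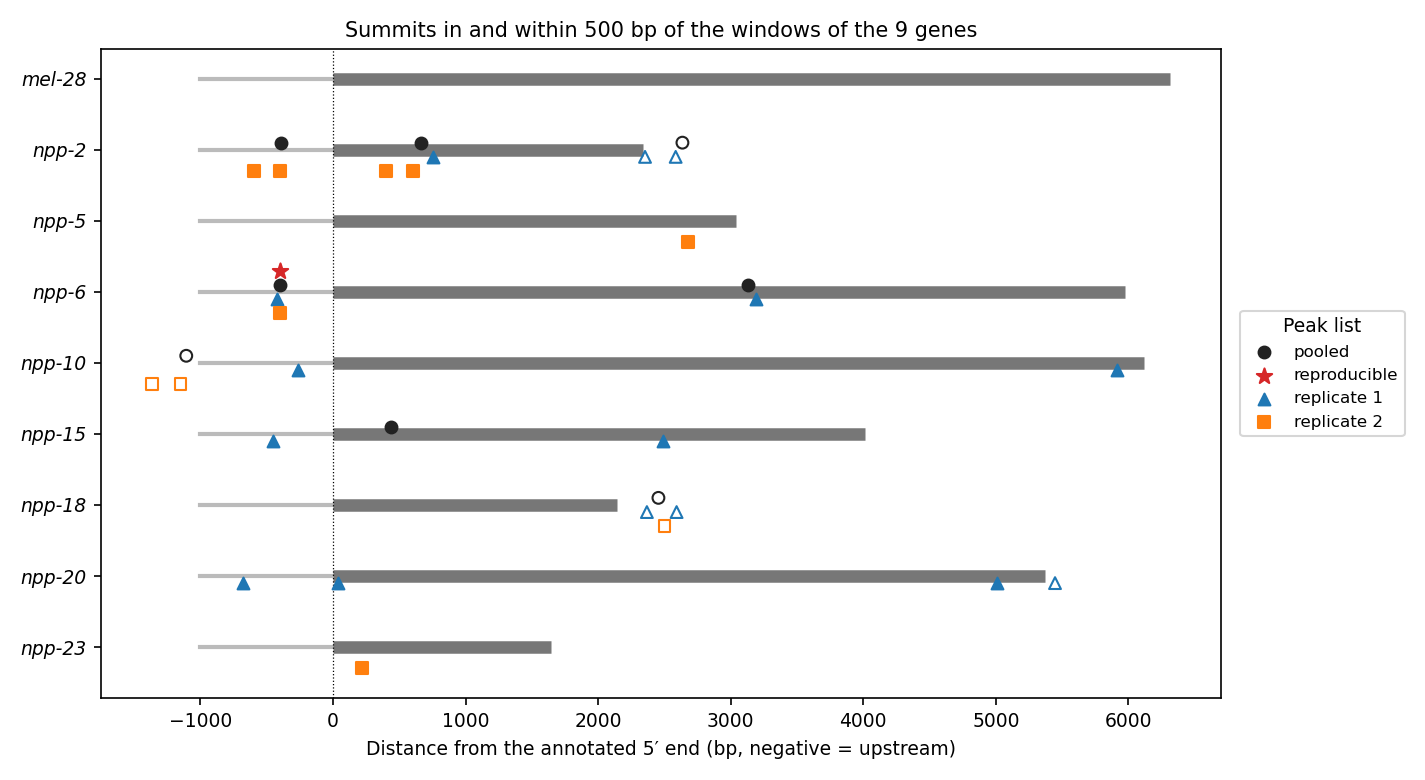
Positions of summits relative to the annotated 5′ end (bp, negative upstream) at the 9 genes. Thick bars are gene bodies, thin bars the 1000 bp upstream, filled symbols summits inside the window and open symbols those up to 500 bp outside it. The lists line up at npp-6, 397 to 419 bp upstream, and mel-28 has no symbol.

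The other 4 genes with a summit had it in 1 replicate alone. npp-10 (WBGene00003796, chromosome III 6013447 to 6019562, minus strand) had a summit 262 bp upstream in replicate 1 with signal 29.8 (percentile 91.8), outside annotated genes, and one in its 3′ UTR with signal 18.1 (percentile 51.9). npp-20 (WBGene00003806, chromosome IV 1490653 to 1496022, minus strand) had 3 in replicate 1. The strongest lay 677 bp upstream with signal 28.7 (percentile 90.5), another 35 bp past the 5′ end with signal 20.2 (percentile 65.3), and the last in an intron, 5009 bp past the 5′ end, with signal 19.5 (percentile 61.7). npp-23 (WBGene00007493, chromosome IV 8868036 to 8869679, minus strand) had a summit in replicate 2, 218 bp past the 5′ end in a coding exon, with signal 25.2 (percentile 52.9). npp-5 (WBGene00003791, chromosome II 11596767 to 11599809, minus strand) had one in replicate 2, 2678 bp past the 5′ end in a coding exon, with signal 19.5 (percentile 6.25). None of these had a counterpart in the pooled list inside the same window.

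**Figure D4:**
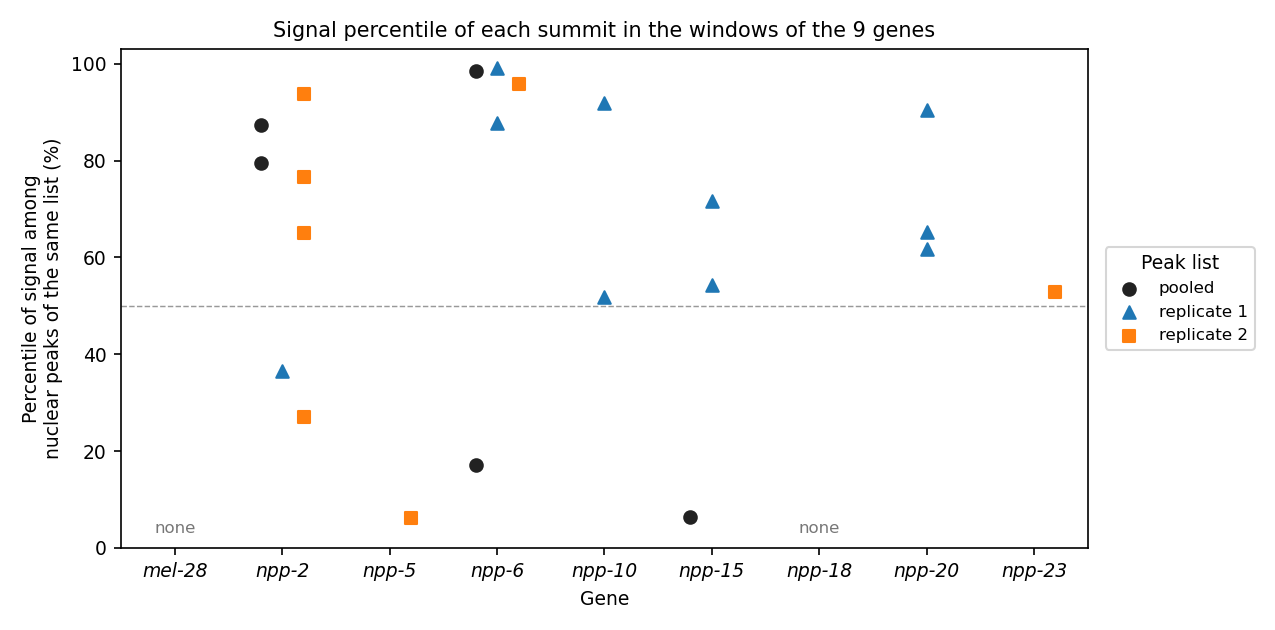
Percentile of the signal of each summit in the window of the 9 genes, among the nuclear peaks of its own list. The dashed line marks the list's median. The summits of npp-6 reach 98.4, 99.1 and 95.9 in the 3 relaxed lists, the single pooled summit of npp-15 stands at 6.34, and mel-28 and npp-18 have none.

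The sequences below show what lies under summits listed once on chromosomes II, III and IV, so that they can be set beside their values. Each is 101 bases of the RefSeq sequence of WBcel235 on the strand of the gene, and the capitals mark the 11 bases centred on the summit. They are at chrIII:7929432-7929532 (npp-15, pooled), chrIII:6019774-6019874 (npp-10, replicate 1), chrIV:1496649-1496749 (npp-20, replicate 1), chrIV:8869411-8869511 (npp-23, replicate 2) and chrII:11597081-11597181 (npp-5, replicate 2). A further pair lies just past the 3′ ends of npp-18 (chrIII:13299258-13299358, pooled), where all 3 relaxed lists had a summit, and of npp-20 (chrIV:1490526-1490626, replicate 1).
npp-15: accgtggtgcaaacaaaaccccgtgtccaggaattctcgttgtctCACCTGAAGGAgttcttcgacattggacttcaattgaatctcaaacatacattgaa
npp-10: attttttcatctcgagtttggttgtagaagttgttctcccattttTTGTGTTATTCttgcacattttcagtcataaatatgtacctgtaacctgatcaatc
npp-20: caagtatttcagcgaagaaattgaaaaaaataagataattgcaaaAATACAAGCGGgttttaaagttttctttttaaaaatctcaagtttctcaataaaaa
npp-23: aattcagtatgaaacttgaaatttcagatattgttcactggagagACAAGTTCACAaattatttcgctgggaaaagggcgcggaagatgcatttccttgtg
npp-5: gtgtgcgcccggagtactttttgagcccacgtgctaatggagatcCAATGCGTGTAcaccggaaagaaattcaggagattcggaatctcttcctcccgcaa
npp-18 downstream: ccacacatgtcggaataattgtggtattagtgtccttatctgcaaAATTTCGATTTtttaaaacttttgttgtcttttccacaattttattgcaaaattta
npp-20 downstream: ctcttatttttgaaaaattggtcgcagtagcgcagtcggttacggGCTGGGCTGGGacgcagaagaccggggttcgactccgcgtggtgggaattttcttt

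Counted over the 9 genes, 3 had a summit in the pooled list, against 44.1% of all protein-coding genes. In replicate 1 it was 5 genes, against 55.6%, and in replicate 2 it was 4 genes, against 48.7%. In any of the 3 relaxed lists it was 7, against 70.2%. These counts are near the background, although the members' median window of 5013 bp was longer than the 3027 bp of all genes. Per length, the members had 0.109 pooled summits per kb of window, against 0.186 over all protein-coding genes. In replicate 1 the values were 0.218 and 0.256 per kb, and in replicate 2 they were 0.152 and 0.212 per kb. The members' density was thus the lower one in each relaxed list, a difference that was not tested. Of their 45.954 kb of window, 7.312 kb belong to mel-28 and 3.141 kb to npp-18, both without a summit. These empty windows lower the density of the set, so it does not describe each gene. The density over all protein-coding genes includes empty windows too, as 29.8% of them had no summit in any of the 3 relaxed lists.

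Both replicates had summits within 250 bp of each other at npp-2 and npp-6 alone, 2 of 9 genes, against 21.6% of all protein-coding genes. A pooled summit upstream of the 5′ end was present at these same 2 genes, against 4191 of all 19973 genes (21%). A summit in replicate 1 and none in replicate 2 was found at 3 of 9 genes, npp-10, npp-15 and npp-20, against 20.2% of all protein-coding genes. The reverse was found at 2 of 9, npp-5 and npp-23, against 13.3%.

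The rest of the pore and the transport machinery that uses it give a scale for this. Of the 16 other nucleoporin genes in the annotation, 14 had a pooled summit, 14 one in replicate 1 and 14 one in replicate 2. Their density was 0.199 pooled summits per kb and their median window 5990 bp. The members' median window was 5013 bp. In all, the windows spanned 135.7 kb over these 16 genes and 45.95 kb over the 9 members, totals that also differ by the number of genes. Longer windows catch more summits, but how much window length adds to these shares was not tested. Of 14 genes for Ran, its regulators, importins and exportins, 13 had a pooled summit, 14 one in replicate 1 and 11 one in replicate 2, at 0.352 pooled summits per kb and a median window of 4474 bp. Each list had 1 gene with a reproducible summit, npp-8, a nucleoporin of the inner ring (highest pooled signal 101), and imb-3, an importin (92.7). The Y-complex genes thus had the lowest share with a summit of the 3 lists in each relaxed list, a share that takes no account of window length. Their density was the lowest in the pooled list and replicate 2, whereas in replicate 1 their 0.218 per kb stood above the 0.206 of the other nucleoporins. The members' density includes the empty windows of mel-28 and npp-18, and these differences were not tested.

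**Figure D5:**
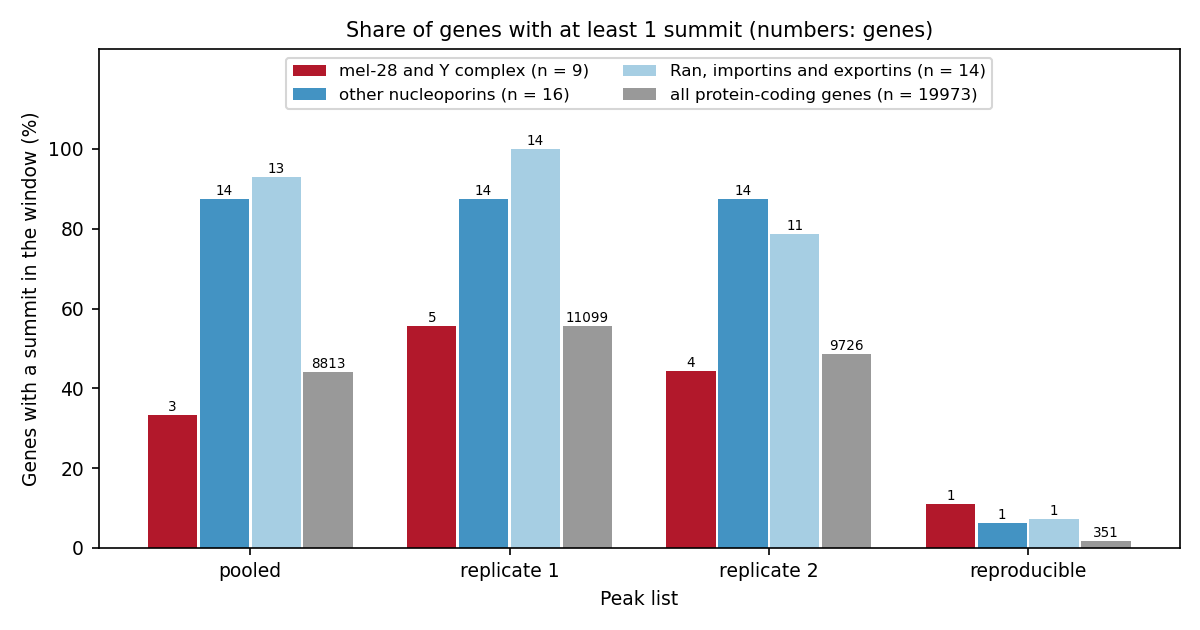
Share of genes (%) with at least 1 summit in the window, for mel-28 and the Y complex, other nucleoporins, the Ran, importin and exportin genes, and all protein-coding genes, in each of the 4 lists. Numbers above the bars are genes. The 9 members stand at 3, 5, 4 and 1 genes, near the level of all genes in the relaxed lists.

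The border of the window decided some of these counts. Over all lists 5 summits lay within 500 bp inside a border and 11 within 500 bp outside one. In the pooled list and replicate 1 the strongest of those outside belonged to npp-18, and in replicate 2 to npp-10. That of npp-18 lay 315 bp past the 3′ end in the pooled list with signal 64.1 (percentile 92.0, rank 1359), 228 bp past it in replicate 1 with signal 30.1 (percentile 92.2) and 361 bp past it in replicate 2 with signal 28.3 (percentile 67.9). These 3 summits lay within 133 bp of each other, and the pooled one was 70 bp from the 5′ end of pgm-2, the gene of a phosphoglucomutase. At npp-10 the pooled list had a summit 1106 bp upstream with signal 34.5, in a coding exon of cyk-3, the gene of a deubiquitinating enzyme. Replicate 2 had summits 1149 and 1365 bp upstream, with signals 30.4 and 35.7. At npp-2 a pooled summit of signal 52.2 lay 295 bp past the 3′ end, at the 5′ end of kin-10, a casein kinase subunit gene. Replicate 1 had summits 244 and 13 bp past that 3′ end, with signals 25.8 and 20.2. At npp-20 a summit of replicate 1 with signal 19.1 lay 77 bp past the 3′ end.

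Known motifs were searched around the summits. Within 150 bp on each side of the 5 pooled summits inside the windows, TATAAA, the letters of a TATA box, occurred at 1, that of npp-2 past the 5′ end. They occurred on either strand at 26.5% of all 17005 pooled summits. None of the 4 other motifs searched was found at these 5 summits. Their shares over all pooled summits were 3.93% for TTCCCGC (an E2F site), 8.62% for GAGAGAG, 6.96% for CACGTG (an E-box) and 3.79% for GTTCGANNC. In the shorter windows of 101 bases, taken at the summits of all lists on chromosomes II, III and IV, 3 held a motif. Several windows were each searched for all 5 motifs, so finding any motif is more common than each single share below. TATAAA was in none of them, against 9.73% of all such pooled windows, 10.0% in replicate 1 and 9.80% in replicate 2. The printed npp-5 sequence holds CACGTG, as do 2.19% of such windows of replicate 2. The summit of npp-15 in replicate 1 that lay 2487 bp past the 5′ end has GAGAGAG beside it, as do 2.92% of the windows of replicate 1. The sequence past the 3′ end of npp-20 holds GTTCGANNC, the letters of the B box of genes read by RNA polymerase III, as do 1.25% of the 101-base windows of replicate 1. No RNA gene is annotated there, the nearest being 2560 bp away. No annotated noncoding RNA gene (tRNA, snoRNA, snRNA, miRNA, piRNA, lincRNA, rRNA, antisense or unclassified) lay within 500 bp of any summit in or beside the 9 windows. The share of all summits with such a gene that near is not given here, so this absence has no background beside it. GC content in the 301 bases around the pooled summits was 45.2% and 37.5% at npp-6, 35.5% and 37.9% at npp-2 and 46.5% at npp-15, against a median of 37.9% over all pooled summits and a 5th to 95th percentile range of 28.6 to 50.5%.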

How the data were processed

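ChIP-seq peaks of tagged MEL-28 were taken from 4 deposited ce11 lists in narrowPeak layout: a relaxed list per replicate, a relaxed pooled list and a reproducible list thresholded by IDR (the irreproducible discovery rate). Per the deposited manifests, each replicate's list came from its own alignments and 1 further shared file whose role is not named, the pooled list from both, and the reproducible list from these 3. Which aligner, peak caller and threshold were used is not stated in the labels or headers. The signal of a peak is the authors' value, and the −log10 q-value is deposited beside it but was not used to rank peaks. Inside the members' windows the −log10 q-value was highest at the upstream summit of npp-6, with 2.05 pooled, 1.86 in replicate 1 and 1.65 in replicate 2. Next came 1.27 in replicate 2, 397 bp upstream of npp-2, and 1.26 in replicate 1, upstream of npp-10. The pooled upstream summit of npp-2 had 0.913. The lowest were 0.030 at npp-15 in the pooled list and 0.026 at npp-5 in replicate 2. The ce10 lists were not used. Read counts were not analysed, so depth is unknown and no interval covers it.

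Summits were the peak start plus the authors' offset, and 0 peaks ran past a chromosome end. Genes came from Ensembl release 115 and sequence from RefSeq (WBcel235, the assembly of ce11). Mitochondrial peaks were left out. The background was the same window at all nuclear protein-coding genes. With 1 group and no second condition no test was run, and values are descriptions. Named were the 9 genes, genes at or nearest to their pooled summits, noncoding genes within 500 bp, members of the other lists with a reproducible summit, unc-119 and the 3 genes most like the strongest member. The 10 genes of the long stretch and neighbours in a replicate list alone were named after their values were seen. Of the other nucleoporin names 1 of 17 and of the transport names 3 of 17 had no match. The members and lists were chosen with earlier results of these data known. Window counting was tested on simulated data. Python 3.11.15, numpy 2.4.6, pandas 2.3.3 and matplotlib 3.10.9 were used.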

Additional observations from a re-analysis of the deposited data

How the results depend on the processing

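Of 51 recalculations, 40 stayed within the limits set and 11 moved, and 0 reversed. Counts, percentiles and lengths have no sign, so the 0 says little. The limits were wide for counts. The replicate 2 count of 6 genes with 2000 bp upstream, against 4, was still within them. The percentile of npp-6 in replicate 2, 95.9 against 98.4 in the pooled list, was not. The reproducible count stayed at 1 gene, npp-6, under every window tried. With 2000 bp upstream the pooled count was 5 genes, adding npp-10 and npp-20, against 3. With a single replicate in place of the pooled list it was 4 to 5 genes, the number of pooled summits 7 to 10 against 5, and the number of genes with an upstream summit 2 to 4 against 2. Keeping the pooled peaks at or above the median signal left 3 summits. With 100 bp in place of 250 bp between replicate summits, npp-6 alone was shared (1 gene). A window reaching 500 bp past the 3′ end added npp-18 in each relaxed list. The summit-free stretch of mel-28, with alternatives chosen after seeing the data, was 45.7 to 46.8 kb in a single replicate, 45.7 kb over all 3 relaxed lists and 47.3 kb among the stronger pooled peaks. The highest percentile was 36.5 to 93.7 at npp-2 and 95.9 to 99.1 at npp-6 in the single replicates, and 71.7 at npp-15 in replicate 1. No paired analysis was possible because there is 1 group. With 2 replicates, unknown depth and lists made to hold weak peaks, a missing summit means that no peak was listed, not that MEL-28 was absent.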
